A study of Rattus norvegicus with 24 samples.

Results

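Calb1, Calb2, Pvalb, Necab1 and Necab2 were followed in single neurons of the rat dorsal root ganglia (DRG). They are 5 of the 32883 genes listed in the count files, picked by name as calcium-binding genes that serve as markers of neuron types, and no measured value entered the rule. For each gene it was asked which neuron types hold its RNA, which single cells hold several of the genes, and whether its level differed after a nerve injury. The cells were L4 and L5 DRG neurons of male SD (Sprague-Dawley) rats, picked by hand and sequenced from the 3′ end of polyA RNA with a modified Smart-seq2 protocol that counts unique molecular identifiers (UMIs). In the spared nerve crush (SNC) the tibial and common peroneal branches of the sciatic nerve were crushed and the sural branch was left intact. Sham surgery exposed the nerve without injuring it.

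The neurons traced with dyes from these branches, called labelled here, came from 16 DRG samples in 17 libraries, since S was split over 2. The sham group has 4 samples (Xin, 4, 10 and 18), with 4 at 1 d after SNC (13, 16, 17-1 and 17-2), 3 at 3 d (14, 15 and 17-3) and 5 at 7 d (S, 8, 9, 19-1 and 19-2). A further 7 libraries, added to the series later, are labelled as sham at 0 d (S1, S2 and S7), 1 d (S3 and S6), 3 d (S4) and 7 d (S5), and carry no dye label. Crushed and uncrushed neurons of a sample were pooled, since the cell names do not carry the dye. The labels count the neurons of each labelled sample as directly or indirectly injured, also in sham, where the nerve was not injured. Those counted as directly injured made up 50.0 to 66.7% of each sample but 19-1 and 19-2. There they made up 83.3% (20 cells against 4) and 16.7% (4 against 20). The labels do not say which rats gave which sample, so every p-value below measures the spread between these samples only.

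The quality limits of 500 genes, 1000 UMIs and 5% mitochondrial UMIs left 930 of 936 labelled cells and 503 of 528 added cells. The kept cells of a sample summed to between 4002503 and 28975829 UMIs in the labelled set and between 14004381 and 40733436 in the added set. All 6 neuron markers checked were found in every sample. The summed glial markers (10 genes, among them Apoe and Mbp) ranged from 124 to 1351 CPM (UMIs scaled to a common total) over the labelled samples. The macrophage list stayed at or below 21.8 CPM and the endothelial list at or below 18.3 CPM over all samples. Levels below are CPM of UMIs summed over the named cells of a sample, and a cell is said to hold a gene at 10 CPM or more. Samples 14 and 19-1 and the libraries S3, S4 and S5 stand apart for Pvalb, which was found in most of their cells of every type, as described below.

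All 5 genes encode proteins that bind calcium through EF-hand motifs. Calb1 encodes calbindin D28k and Calb2 encodes calretinin, which are fast cytosolic calcium buffers. Pvalb encodes parvalbumin, a slower buffer long used to mark the large proprioceptive neurons that report muscle stretch and the Aβ mechanoreceptors. Necab1 and Necab2 encode neuronal calcium-binding proteins that join an EF-hand to a monooxygenase-like domain. Sensory neurons of the DRG fall into large myelinated neurons rich in neurofilament (NF), peptidergic (PEP) and non-peptidergic (NP) nociceptors, somatostatin (SST) neurons linked to itch, cold-sensing Trpm8 neurons, and C-fibre low-threshold mechanoreceptors (cLTMR).

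Neuron types were rebuilt by clustering each set, with the 5 genes taken out of the genes used for clustering, so these names can differ from those of the study. The labelled neurons gave 10 clusters, which were PEP1-like (186 cells), PEP2-like (186), PEP3-like (116), NF-like (84), NP-like (68), TRPM8-like (29), 2 SST-like clusters led by Sst (58) and Papss2 (71), a cluster high in 8 of 10 glial markers (41, left unnamed), and 91 large-fibre cells. The large-fibre cluster was led by Shox2, Smpx and Ntng1. Of its markers, 5 of 6 for proprioceptors and 11 of 14 for NF neurons were high, so it is not given to either type. The added neurons gave 7 clusters. A large-fibre cluster of 97 cells was led by Shox2, Lypd1 and Tmem163 (6 of 6 proprioceptor and 10 of 14 NF markers). The others were an SST-like cluster (28), a cLTMR-like cluster (17), 2 NP-like clusters led by Lmx1a (77) and Cav1 (58), and 2 unnamed clusters led by Kcng1 (136) and Rbp2 (90). The Kcng1-led cluster was high in 8 of 10 glial markers and in 8 of 11 PEP3 markers.

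The genes differed in their distribution over the neuron types, though some were highest in the same cluster. Pvalb was highest in large-fibre neurons in both sets. Necab2 marked SST-like neurons in both sets, and Calb2 was highest in SST-like neurons with large-fibre neurons next, an order that turned in the added set under a finer clustering. Calb1 was highest in large-fibre neurons in the labelled set and in cLTMR-like neurons in the added set. Necab1 was found in nearly all types and was highest in PEP3-like and Sst-led neurons in the labelled set and in SST-like neurons in the added set. These levels describe the clusters and are no test of them.

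**Figure D1:**
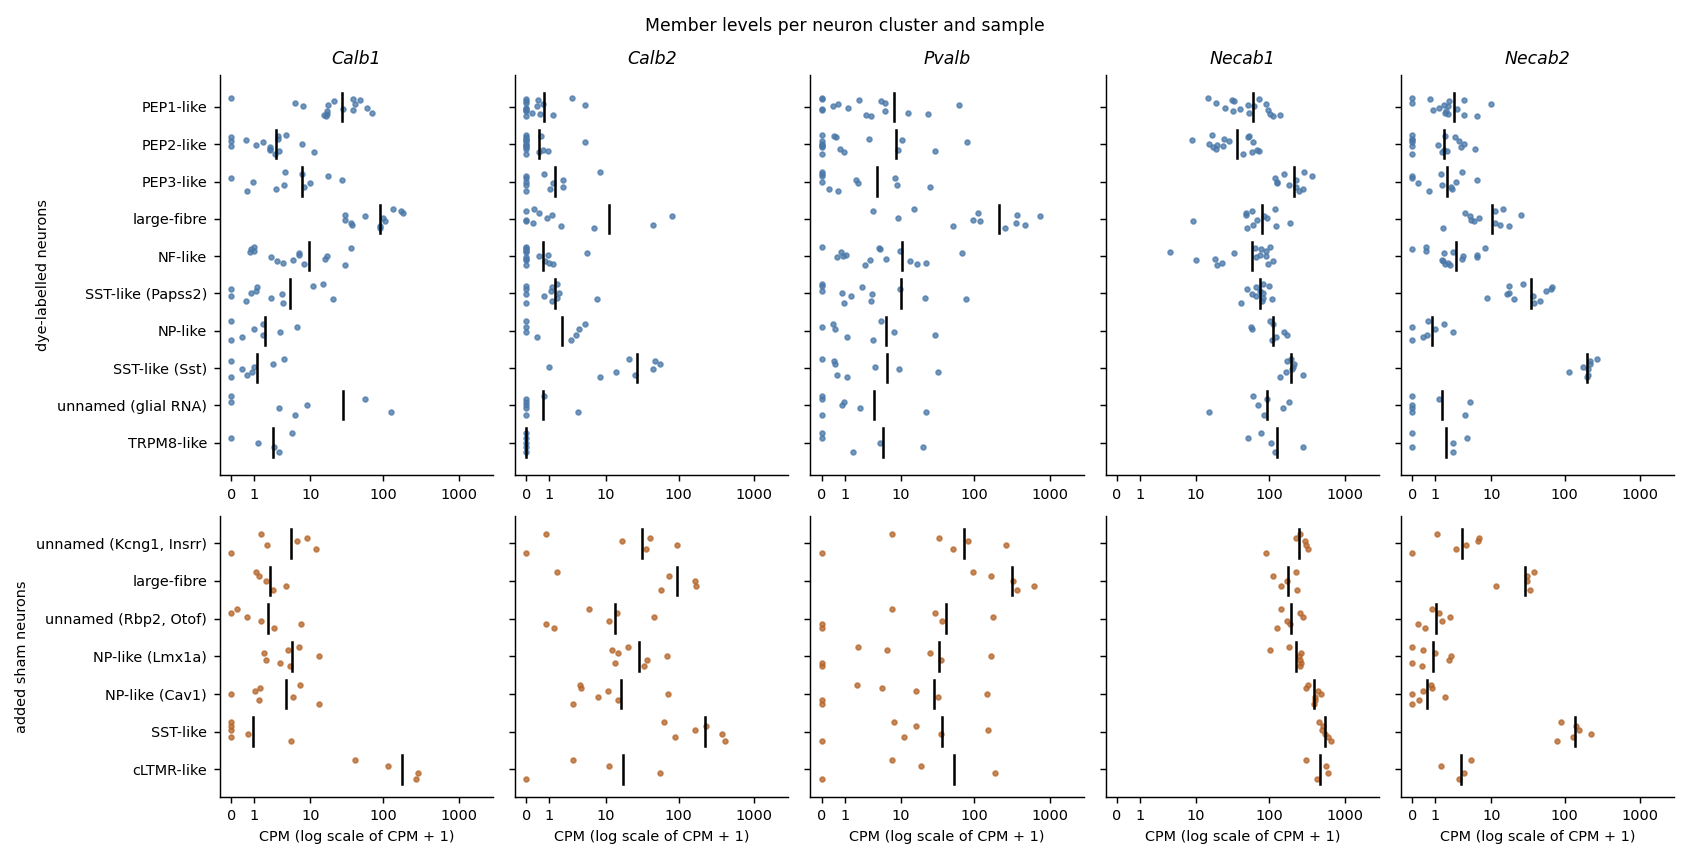
Level of each gene in each neuron cluster. Each point is the CPM of the summed UMIs of 1 sample with at least 3 cells of the cluster, on a log scale of CPM + 1, and the bar is the mean over samples; dye-labelled neurons are above and added sham neurons below. Necab2 of the Sst-led SST-like cluster lies between 115 and 272 CPM and does not overlap the Papss2-led cluster, which reaches 67.9 CPM.

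Calb1, the fast buffer calbindin, averaged 88.9 ± 53.3 CPM (SD, n = 12 samples) in labelled large-fibre neurons, with samples between 30.4 and 184 CPM. The cluster with glial markers followed at 28.8 ± 47.3 CPM (n = 7) and the PEP1-like cluster at 28.1 ± 20.1 CPM (n = 16), both with ranges that overlapped the large-fibre range. NF-like neurons had 9.47 ± 11.3 CPM (n = 15) and the Sst-led cluster, the lowest, 1.17 ± 1.39 CPM (n = 8). Of the 187 labelled cells that held Calb1, 65 were large-fibre cells (71.4% of that cluster) and 59 were PEP1-like cells (31.7%). Within every one of 12 labelled samples with at least 3 large-fibre cells, Calb1 was higher in those cells than in the remaining cells of the same sample.

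The added sham neurons placed Calb1 elsewhere. Their large-fibre cells had 2.23 ± 1.27 CPM of Calb1 (n = 5) and were below the remaining cells in 5 of 5 libraries, and 7 of 97 held the gene. Their cLTMR-like cells had 269 CPM in S1, 289 in S4, 114 in S5 and 42.4 in S6, and 14 of 17 held it. No sample of another added cluster exceeded 13.6 CPM, so the cLTMR-like range did not overlap any other. Calb1 was among the 10 genes that lead this cluster. The labelled large-fibre cells include neurons of injured rats. In the 3 labelled sham samples with at least 3 large-fibre cells their level of Calb1 was 30.7, 91.3 and 98.1 CPM. In the 5 added libraries it was 1.14 to 4.29 CPM. The part of injury in the difference between the sets was not tested. The sets also differed in dye, library date and picking, which cannot be told apart.

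Calb2, the calretinin gene, was sparse in the labelled neurons, of which 52 held it. The Sst-led SST-like cluster averaged 27.6 ± 20.3 CPM (n = 8, range 1.01 to 55.7) and 24 of its 58 cells held Calb2. Large-fibre cells had 11.4 ± 25.2 CPM (n = 12, range 0 to 80.5) with 7 of 91 holding it, so the order of these clusters is within their spread. Every other labelled cluster averaged at most 1.94 CPM. In the added set Calb2 was more widespread, with 222 ± 145 CPM (n = 6) in SST-like cells, 94.3 ± 73.0 CPM (n = 5) in large-fibre cells, and 13.5 to 31.8 CPM in the other clusters. Here 25 of 28 SST-like cells and 65 of 97 large-fibre cells held it. SST-like cells were above the remaining cells of their sample in 8 of 8 labelled and 6 of 6 added samples, and large-fibre cells in 4 of 12 and 4 of 5.

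By summed level Pvalb was concentrated in large-fibre neurons. It averaged 217 ± 228 CPM there (n = 12), with samples from 3.75 CPM in sample 9 to 741 CPM in sample 19-1, and at most 10.5 CPM on average in any other labelled cluster. The added large-fibre cells averaged 316 ± 202 CPM (n = 5, range 98.5 to 617). Next among the added clusters was the Kcng1-led cluster, high in glial markers, at 74.4 CPM. Large-fibre cells were above the remaining cells in 12 of 12 labelled and 5 of 5 added samples. At 10 CPM, 62 of 91 labelled and 84 of 97 added large-fibre cells held Pvalb. Large-fibre cells were 28.3% of all labelled cells holding Pvalb, below the 34.8% for Calb1.

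Outside the large-fibre cluster, the level of Pvalb followed the sample more than the neuron type. In the 4 labelled samples with at most 1 large-fibre cell it was between 0 and 2.07 CPM in the remaining cells, and in the other 12 between 0.185 and 69.9 CPM. The added libraries S1 and S2, which had no large-fibre cell, had 0 and 0.379 CPM, while the other 5 had 6.25 to 212 CPM. In sample 19-1, large-fibre cells had 741 CPM and the remaining cells 69.9 CPM, with all 18 of those cells holding Pvalb. In S4 the values were 617 and 212 CPM, and all 42 remaining cells held it. In sample 14 they were 467 and 28.1 CPM, with 66 of 86 remaining cells holding it. The source of this signal was not tested. A limit set to each library, at least 10 CPM and at least 5 times the median cell of that library, was added after the data had been seen. It lowered the labelled cells that hold Pvalb from 219 to 77, of which 48 were large-fibre cells.

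**Figure D2:**
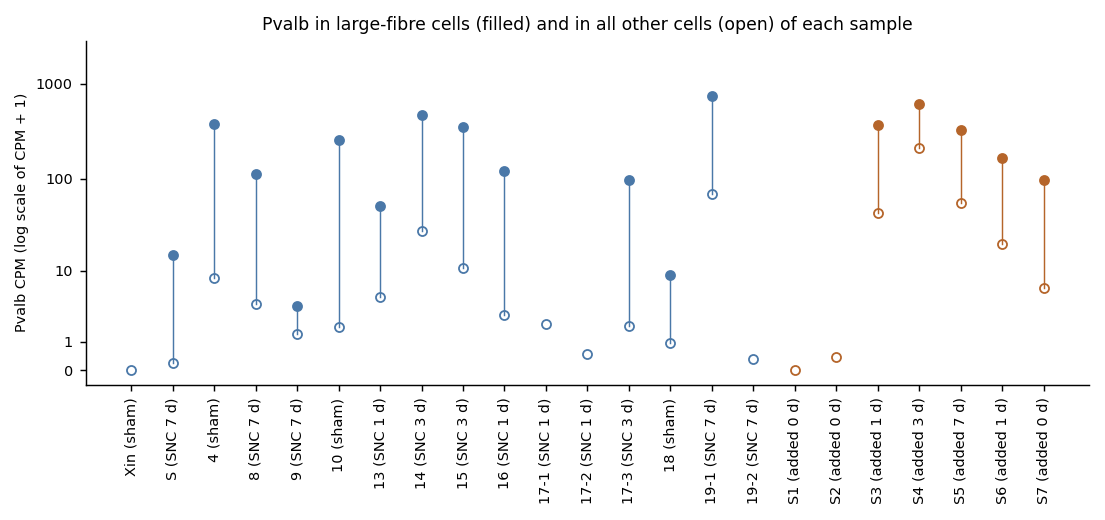
Pvalb in each sample, on a log scale of CPM + 1. Filled points are the large-fibre cells of samples with at least 3 such cells, open points all remaining cells of the sample, with labelled samples in blue and added libraries in brown. The filled point is above the open one in all 17 samples that have both, and the open points reach 212 CPM in S4.

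Necab1 had the widest distribution, with 732 of 930 labelled and 495 of 503 added cells holding it. In the labelled set it averaged 214 ± 79.1 CPM (n = 11) in PEP3-like neurons, which are peptidergic nociceptors, and 196 ± 40.7 CPM (n = 8) in the Sst-led cluster. The lowest level was 36.5 ± 21.4 CPM (n = 16) in PEP2-like neurons, and neighbours in the order from top to bottom all overlapped. PEP3-like neurons exceeded the remaining cells of their sample in 11 of 11 samples. Necab1 is on a list of PEP3 genes that the study chose on these samples, so this is not independent evidence. In the added set SST-like cells averaged 543 ± 68.5 CPM (n = 6), cLTMR-like cells 476 ± 131 CPM (n = 4), Cav1-led NP-like cells 394 ± 61.8 CPM (n = 7) and large-fibre cells, the lowest, 177 ± 51.4 CPM (n = 5).

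Necab2 was concentrated in SST-like neurons. In the Sst-led SST-like cluster it averaged 200 ± 44.0 CPM (n = 8) and 57 of 58 cells held it, and no sample of another cluster reached that range. The Papss2-led SST-like cluster followed at 35.3 ± 20.4 CPM (n = 12) with 46 of 71 cells, and large-fibre cells at 10.1 ± 7.02 CPM (n = 12) with 17 of 91. All other labelled clusters averaged between 0.823 and 2.75 CPM. The added set repeated the order, with 136 ± 52.5 CPM (n = 6) in SST-like cells (26 of 28 holding it) and 29.8 ± 10.5 CPM (n = 5) in large-fibre cells (41 of 97), and neither range overlapped the next. By number of cells the added large-fibre cluster held more of the 83 Necab2 cells (49.4%) than the SST-like cluster (31.3%). Necab2 was among the genes that lead the SST-like cluster in both sets.

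Within single cells the genes met in some pairs more than others, given here as shares of each gene's own cells. In the labelled set 428 of 930 cells held 1 of the 5 genes, 281 held 2, 96 held 3, 16 held 4, 1 held all 5 and 108 held none. Calb1 and Calb2 met in 6 cells, 3.21% of Calb1 cells and 11.5% of Calb2 cells, and in no cell at a limit of 50 CPM. Calb2 and Necab2 met in 28 cells, 53.8% of Calb2 cells and 17.8% of Necab2 cells, and 23 of these were in the Sst-led cluster. Calb1 and Pvalb met in 65 cells (34.8% and 29.7%), 42 of them large-fibre cells. Of Necab2 cells, 146 (93.0%) also held Necab1.

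In the added set Calb2 and Pvalb met in 205 cells, 84.7% of Calb2 cells and 68.6% of Pvalb cells, but with the limit set to each library they met in 14. The Pearson correlation of their log2(CPM + 1) over the 503 cells was 0.60, and 0.30 after each library was centred, a choice made after the data had been seen. Calb2 and Necab2 correlated at 0.37 over labelled and 0.36 over added cells, and at 0.38 and 0.34 after centring. These cells share libraries and depth, so the correlations are descriptions.

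The large-fibre neurons were not uniform in Pvalb and Necab2. Over the 97 added large-fibre cells these genes correlated at -0.48, and at -0.43 once each library was centred, and over the 91 labelled ones at -0.26 and -0.35. Calb2 and Pvalb correlated at 0.76 over the added cells but at 0.49 when centred, with 0.61 within S3, 0.30 within S4, 0.80 within S6 and -0.10 within S7. In the labelled cells the 0.40 of the pooled value fell to 0.11 when centred, with 0.18, -0.18 and -0.23 within samples S, 8 and 18. No large-fibre cell of S7, S, 8 or 18 held Calb2, so the values within them are for a gene near 0 and decide nothing. Samples 14 and 19-1, with 3 Calb2 cells each, had too few large-fibre cells (9 and 6) for a value within them. The centring was chosen after the data had been seen. The added large-fibre cells that held Necab2 (41) averaged 241 CPM of Pvalb against 665 CPM in the remaining 56, and were lower in 5 of 5 libraries with both kinds. They also had less Etv1, a transcription factor of proprioceptors (208 against 534 CPM, lower in 5 of 5), and less Runx3 (5.16 against 24.0 CPM, lower in 5 of 5), which specifies them. Their Ntrk2, which encodes the BDNF receptor TrkB of Aδ mechanoreceptors, was higher (373 against 77.4 CPM, 5 of 5), as was Ntng1 (184 against 66.7 CPM, 5 of 5). In the labelled set, where 4 samples could be compared, the 17 cells holding Necab2 had 24.4 CPM of Pvalb against 211 CPM and 17.4 CPM of Etv1 against 102.3 CPM, both lower in 4 of 4, with Ntrk2 at 261 against 109 CPM, higher in 4 of 4.

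Cells holding Calb2 had more Pvalb, but most came from few libraries. Of the 65 such added large-fibre cells 44 were all the large-fibre cells of S4, a library with Pvalb in every cell. The 65 averaged 667 CPM of Pvalb against 118 CPM in the other 32, and 536 CPM of Etv1 against 111 CPM. Their Ntrk2 was 133 against 343 CPM. Without S4, Pvalb was at 452 CPM in the 21 cells holding Calb2 and 118 CPM in the other 32. All 7 labelled large-fibre cells with Calb2 also held Pvalb, at a mean of 772 CPM against 127 CPM in the other 84. Of these 7 cells 3 were from sample 14 and 3 from 19-1, which have Pvalb in most cells of every type, and the part of this in the difference was not tested. These cells had 115 CPM of Hapln4, which encodes a perineuronal matrix link protein, against 9.00 CPM. Only 2 samples of each set had enough cells of both kinds, and Pvalb was higher in the Calb2 cells in each of them.

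A finer clustering, at a resolution of 0.8 in place of 0.5, separated the added large-fibre cells along this line. A proprioceptor-like cluster of 45 cells had 879 ± 71.5 CPM of Pvalb, 262 ± 111 CPM of Calb2, 70.3 ± 40.2 CPM of Necab1 and 2.93 ± 2.04 CPM of Necab2 (n = 3 libraries). An NF-like cluster of 54 cells, 52 of them large-fibre cells, had 112 ± 69.0 CPM of Pvalb, 20.3 ± 25.6 CPM of Calb2, 223 ± 55.9 CPM of Necab1 and 36.5 ± 7.99 CPM of Necab2 (n = 5). The ranges of these 2 clusters did not overlap for any of the 4 genes. Calb1 was low in both, at 0.784 and 3.56 CPM. At this resolution the proprioceptor-like cluster, and not the SST-like cluster (222 CPM), had the highest added level of Calb2, with overlapping ranges. In the labelled set the same resolution left the large-fibre cluster whole.

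**Figure D3:**
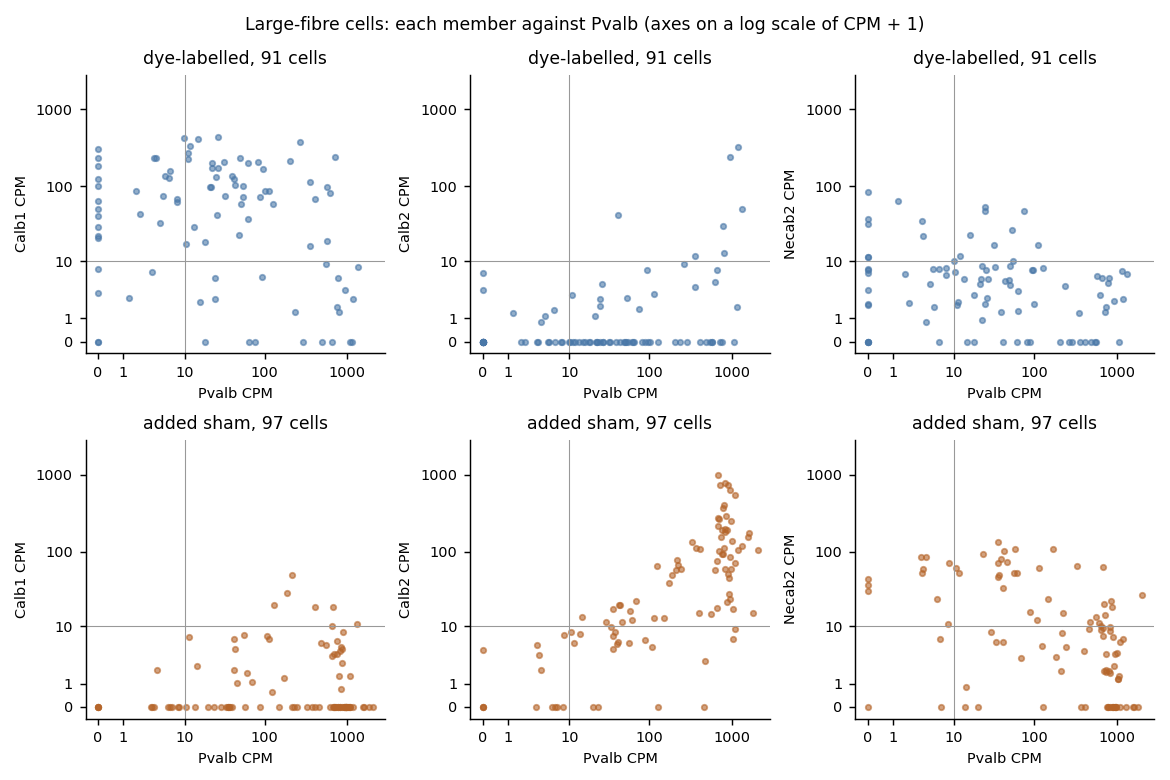
Single large-fibre cells, 91 labelled (above) and 97 added (below), with CPM of Pvalb on the horizontal axis and of Calb1, Calb2 or Necab2 on the vertical axis, all on a log scale of CPM + 1; grey lines mark 10 CPM. In the added set Calb2 rises along Pvalb (r = 0.76 pooled, 0.49 with libraries centred) and Necab2 falls (r = -0.48 and -0.43), and Calb1 is at or near 0 in most cells, whereas 65 of 91 labelled cells lie above the line for Calb1.

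The genes whose levels over the 930 labelled cells were most like each member, out of 14582 genes, include leading genes of the clusters above. For Pvalb they were Sparcl1 (r = 0.54), Vsnl1 (0.53), which encodes the calcium sensor visinin-like 1, Smpx (0.52), Spp1 (0.51) and Clec2l (0.49), and over the 503 added cells they ranged from 0.71 to 0.83. For Necab2 they were Il31ra, the receptor of the itch cytokine IL-31 (0.68), Nppb, the itch peptide gene (0.59), Tnnt3 (0.58), Ly86 (0.58) and Ednra, an endothelin receptor (0.57), with 0.41 to 0.60 in the added cells. Calb2 shared Tnnt3 (0.42), Ednra (0.41) and Ly86 (0.39) with Necab2, beside Ttc23 (0.40) and S100g (0.39). For Necab1 they were Rarres1 (0.56), Ldb2 (0.52), the irritant channel Trpa1 (0.51), Lamp5 (0.49) and Sptlc3 (0.48). For Calb1 they were Plcb1 (0.46), Hoxb7 (0.43), Dach1 (0.43), Shox2 (0.42) and Vtcn1 (0.41), which in the added cells were 0.22 for Plcb1 and between -0.01 and 0.05 for the others.

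The level of each gene was then compared between each time after SNC and sham, over sums of all labelled neurons per sample. Calb1 had 2.00, 8.08, 17.4 and 24.5 CPM in the sham samples Xin, 4, 10 and 18. It had 14.9 to 21.7 CPM at 1 d and 17.3 to 23.6 CPM at 3 d. At 7 d it had 45.7, 94.9, 44.9, 28.2 and 7.03 CPM in samples S, 8, 9, 19-1 and 19-2. All but sample 19-2 at 7 d were thus above all sham samples. The 5 samples at 7 d averaged 44.2 ± 32.5 CPM and the 4 sham samples 13.0 ± 9.93 CPM, a log2 fold change of 1.69 ± 0.57 (SE) with an unadjusted p of 0.0092 and an adjusted p of 1.00 by edgeR's quasi-likelihood test with Benjamini-Hochberg adjustment. Samples prepared in the same year kept the order in the earlier year only, where sham had 2.00 to 17.4 CPM and 7 d 44.9 to 94.9 CPM. Reverse transcription shared a date for 4 (sham, 8.08 CPM) and 8 (7 d, 94.9 CPM) and for 10 (sham, 17.4 CPM) and 9 (7 d, 44.9 CPM), higher at 7 d in both. In the later year the 1 sham sample had 24.5 CPM and the 7 d samples 28.2 and 7.03 CPM.

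Pvalb spanned the widest range. Sham samples had 0, 96.1, 29.7 and 2.29 CPM, 1 d samples 2.07 to 19.6 CPM, 3 d samples 20.5 to 128 CPM and 7 d samples 4.00, 57.6, 1.69, 344 and 0.315 CPM. The groups overlapped throughout. Large-fibre cells made up 0 to 14.6% of sham cells and 0 to 27.1% at 7 d. At 7 d they were 6 of 24 cells in 19-1, which had the most Pvalb. They were 13 of 48 in 8, which had the highest share. In sham they were 5 of 48 cells in sample 4, which had the most Pvalb. Sample 18 had the highest sham share, at 14.6%. The part of these shares in the level of Pvalb was not tested. In summed cells, fewer neurons of a type and less RNA per neuron cannot be told apart.

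Calb2, Necab1 and Necab2 also overlapped between sham and every time. Calb2 had 0.4997 to 9.27 CPM in sham, 0 to 2.71 at 1 d, 0.233 to 12.3 at 3 d and 0.318 to 43.7 at 7 d. Necab1 had 35.2 to 129 CPM in sham and 48.4 to 146, 86.5 to 129 and 54.5 to 103 CPM at 1, 3 and 7 d. Necab2 had 0.750 to 36.2 CPM in sham and 2.18 to 20.3, 10.0 to 31.0 and 10.9 to 63.2 CPM. None of the 5 genes was called at any time, against a background of 0% of 14241 genes tested at each of the 3 times by edgeR's quasi-likelihood test. At an unadjusted p under 0.05 there were 1243, 594 and 475 genes at 1, 3 and 7 d, with Calb1 at 7 d the only member, and DESeq2 called 9, 1 and 0 genes. The samples of no member were free of overlap with sham, where 2.9%, 6.12% and 0.85% of genes were. The log2 fold changes of the other members lay between -1.89 ± 1.39 (Calb2, 1 d) and 1.67 ± 1.28 (Calb2, 7 d).

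**Figure D4:**
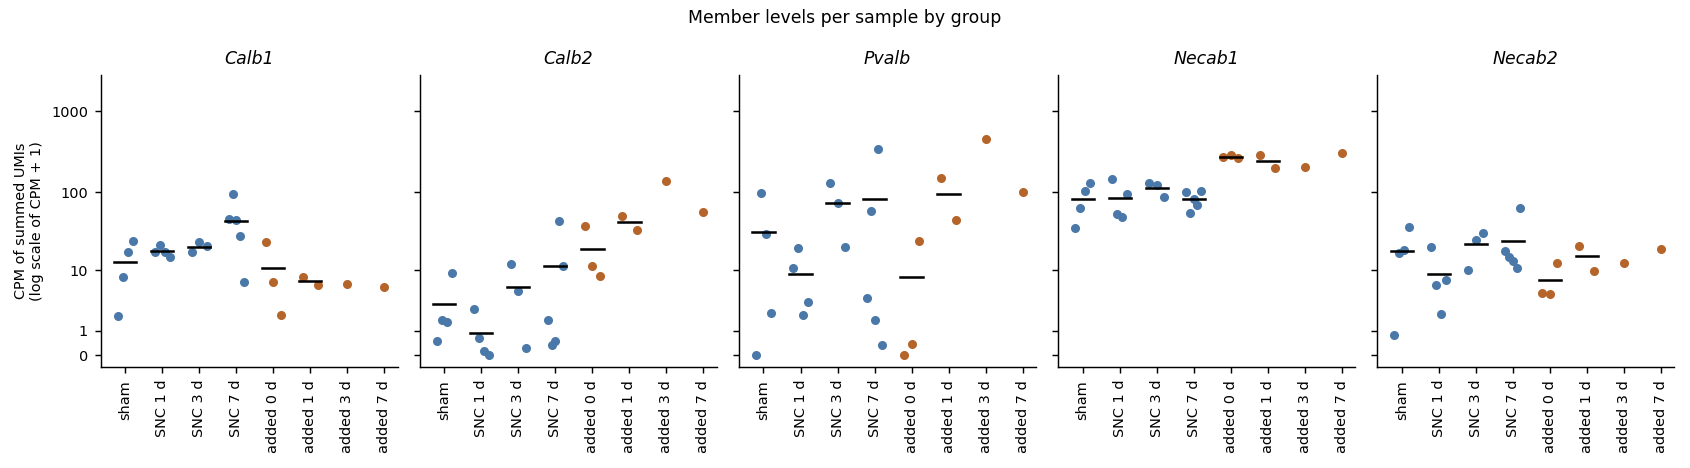
Level of each gene in all kept cells of each sample by group, as CPM of summed UMIs on a log scale of CPM + 1. Blue points are labelled samples, brown points added sham libraries and bars group means. Calb1 at 7 d after SNC lies above all sham samples in 4 of 5 samples, and Necab1 of every added library (199 to 304 CPM) lies above every labelled sham sample (35.2 to 129 CPM).

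The share of cells holding each gene gave no difference that passed the test. Calb1 cells made up 14.7 ± 7.42% of sham cells (n = 4) and 22.5 ± 11.4%, 17.5 ± 6.59% and 22.7 ± 13.1% at 1, 3 and 7 d. Pvalb cells made up 14.6 ± 18.5% in sham and 8.64 ± 3.84%, 46.4 ± 32.2% and 25.8 ± 42.7%. Over the 15 comparisons of 5 genes and 3 times, the lowest p of the exact two-sided permutation tests was 0.114 (Calb2 at 1 d, 5.49% in sham and 1.58% at 1 d, and Pvalb at 3 d), and all adjusted p-values were 0.857 or above. The smallest p these designs allow is 0.0286 at 1 d, 0.0571 at 3 d and 0.0159 at 7 d.

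Levels were also compared within the cluster where each gene was highest, to limit the part of the type of neuron. The cells that make up a cluster can still differ between groups. In large-fibre neurons Calb1 had 30.7, 91.3 and 98.1 CPM in sham, 90.5 and 106 CPM at 1 d, 38.1, 36.5 and 30.4 CPM at 3 d and 136, 184, 169 and 56.9 CPM at 7 d. The 3 d samples were near the lowest sham sample and 3 of 4 samples at 7 d exceeded all sham samples. The log2 fold changes were 0.39 ± 0.49, -1.15 ± 0.45 (unadjusted p of 0.024) and 0.81 ± 0.42, with adjusted p of 1.00 at each time by edgeR's quasi-likelihood test. Pvalb in the same cells had 375, 256 and 8.99 CPM in sham and between 3.75 and 741 CPM at 7 d, with log2 fold changes of -1.24 ± 1.56, 0.49 ± 1.33 and 0.04 ± 1.25. Within the pairs of a shared date it was lower at 7 d, at 113 CPM in 8 against 375 in 4 and 3.75 in 9 against 256 in 10. Necab1 in PEP3-like neurons had 117 to 248 CPM in sham and 127 to 280, 184 to 227 and 159 to 366 CPM at 1, 3 and 7 d. Necab2 in the Sst-led cluster had 197 and 218 CPM in sham, 115 to 202 CPM at 3 d, and 217 and 272 CPM at 7 d, and Calb2 there had 8.27 and 55.7 CPM in sham and 1.01 to 49.0 CPM at 3 and 7 d. Of these members none was called, against 0% of 12478 genes tested in large-fibre, 10335 in PEP3-like and 10060 in Sst-led neurons at each time. No member was free of overlap with sham, where 16.2%, 7.56% and 3.29% of genes were at 1, 3 and 7 d in large-fibre neurons, 8.93%, 13.4% and 8.89% in PEP3-like neurons, and 20.7% and 30.8% at 3 and 7 d in the Sst-led cluster. Unadjusted p-values under 0.05 numbered 396, 427 and 246 in large-fibre neurons, where DESeq2 called 6, 0 and 3 genes and no member.

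The PEP1-like neurons, the named cluster with the next highest level of Calb1, were compared as well, a choice made after the values had been seen. Sham samples had 0 CPM of Calb1 (Xin, 4 cells), 5.90 CPM (4, 5 cells), 16.5 CPM (10, 7 cells) and 7.78 CPM (18, 10 cells). Samples at 1 d had 15.7, 17.5, 39.2 and 28.5 CPM, at 3 d 17.6, 70.9 and 60.1 CPM, and at 7 d 39.9, 21.4, 48.2, 18.0 and 41.6 CPM, from 5 to 22 cells each. All 8 samples at 3 and 7 d were above all 4 sham samples, as were 3 of 4 at 1 d. PEP1-like cells made up 10.4 to 16.7% of the cells of sham samples. They made up 20.8 to 29.2% at 1 d, 18.9 to 25.0% at 3 d and 20.8 to 27.1% at 7 d, without overlap with sham. More Calb1 in these neurons and other neurons joining the cluster cannot be told apart. Samples of the 2 groups were free of overlap for 4.33% of the 10614 genes tested at 1 d, 6.95% at 3 d and 1.31% at 7 d.

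The log2 fold changes of Calb1 in PEP1-like neurons were 1.41 ± 0.53 at 1 d, 2.47 ± 0.54 at 3 d and 1.92 ± 0.51 at 7 d, with unadjusted p of 0.014, 0.000154 and 0.0011. By edgeR's quasi-likelihood test with Benjamini-Hochberg adjustment the adjusted p were 0.381, 0.788 and 0.982, so none was called, against 0.00942%, 0.00942% and 0% of genes called. DESeq2 called Calb1 at 3 d (adjusted p of 0.022, 1 of 2 genes called). With edgeR, the lowest adjusted p over 16 fits that each left out 1 sample was 0.0386. That fit left out sample 14, the 3 d sample with the least Calb1 in these cells. Without the filter on low counts, edgeR called Calb1 at all 3 times, at adjusted p of 0.0331, 7.66e-07 and 0.000255. Those fits called many more genes at each time than the fits with the filter, as counted in the closing paragraph. Within the earlier year the sham samples had 0 to 16.5 CPM and the 7 d samples 21.4 to 48.2 CPM, and within the later year the 1 sham sample had 7.78 CPM and the 9 SNC samples 15.7 to 70.9 CPM. The glial markers of whole samples were at 183 to 1351 CPM in sham and 259 to 1076, 124 to 250 and 147 to 258 CPM at 1, 3 and 7 d, and their part in the result was not tested.

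**Figure D5:**
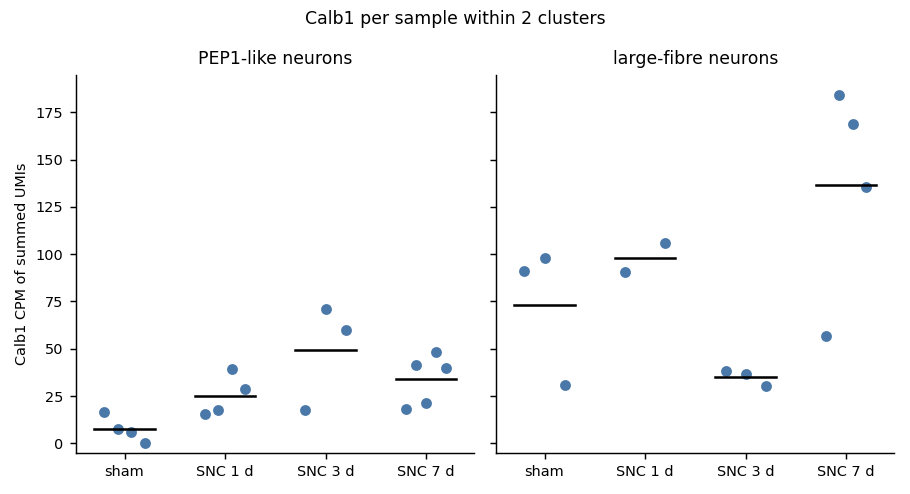
Calb1 in PEP1-like (left) and large-fibre (right) labelled neurons of each sample, in CPM of summed UMIs on a linear axis, with bars for group means. In PEP1-like neurons sham samples reach 16.5 CPM and all samples at 3 and 7 d after SNC are above that; in large-fibre neurons the 3 d samples lie between 30.4 and 38.1 CPM.

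Among the added sham libraries, 0 d was compared with 1, 3 and 7 d as 1 group. Pvalb had 0, 0.379 and 24.3 CPM in S1, S2 and S7 at 0 d, and 148, 44.3, 459 and 99.5 CPM in S3, S6, S4 and S5. Calb2 had 37.99, 11.5 and 8.26 CPM at 0 d and 50.6, 33.5, 137 and 57.0 CPM later, so only S1 and S6 overlapped. Pvalb was free of overlap, as were 10.7% of the genes. None of the 5 genes was called, against 0% of 16161 genes tested (1503 at an unadjusted p under 0.05, and 197 by DESeq2). The log2 fold change of Pvalb was 4.54 ± 1.54 with an adjusted p of 0.522, that of Calb2 1.83 ± 0.67 and that of Necab2 1.10 ± 0.45, both with the same adjusted p by edgeR's quasi-likelihood test.

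The result hangs on S7, the only 0 d library with large-fibre cells. They made up 27.1% of S7 and none of S1 and S2, against 22.9% and 12.5% at 1 d, 51.2% at 3 d and 7.37% at 7 d. Without S7, 1992 genes were called by edgeR's quasi-likelihood test, among them Pvalb (log2 fold change of 9.83, adjusted p of 0.00525) and Necab2 (1.69, adjusted p of 0.0300). That fit sets 0 d libraries with no large-fibre cells against later libraries that all have them. The types of neuron picked and the level per neuron thus cannot be told apart in it. Glial markers were at 128 to 694 CPM at 0 d and 431 to 855 CPM later. These ranges overlapped, since S7 (694 CPM) was above both 1 d libraries (431 and 573 CPM). The part of the glial markers in the result was not tested. Calb1 (2.12 to 23.5 CPM at 0 d, 5.85 to 8.08 CPM later) and Necab1 (264 to 287 and 199 to 304 CPM) overlapped.

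The labelled sham samples were set against the added sham libraries last. Necab1 was lower in all 4 labelled sham samples (35.2 to 129 CPM) than in all 7 added libraries (199 to 304 CPM), with a log2 fold change of -1.53 ± 0.29 and an adjusted p of 0.0012. Calb2 was also lower (0.4997 to 9.27 against 8.26 to 137 CPM), with a log2 fold change of -3.62 ± 0.89 and an adjusted p of 0.0061 by edgeR's quasi-likelihood test. Calb1, Pvalb and Necab2 were not called, at log2 fold changes of 0.72 ± 0.62, -1.71 ± 1.56 and 0.71 ± 0.62. The 2 called members stand against a background of 40.6% of 15793 genes called, and Necab1, the 1 member free of overlap, against 28.1% of genes. Among all genes the median log2 fold change was -0.15. Dye, library date and picking differ together between the sets and cannot be told apart.

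Other EF-hand genes, 59 in a list of calmodulins, neuronal calcium sensors, S100 proteins and others, were put through the same comparisons. Of the 51 tested over all labelled neurons, 0 were called at 1, 3 or 7 d by edgeR's quasi-likelihood test, with 1, 1 and 2 at an unadjusted p under 0.05 (1.96%, 1.96% and 3.92%, beside 8.73%, 4.17% and 3.34% of all genes). The lowest unadjusted p at 1 d was that of Cib2, a calcium- and integrin-binding protein (log2 fold change of -0.43 ± 0.14, p of 0.0071), and Rcn3 (-0.78) was also among the lowest. At 3 d it was that of Rcn3, a reticulocalbin of the secretory pathway (-1.01 ± 0.42), before Chp1 (-0.46) and Pef1 (-0.30), and at 7 d that of S100a1 (-0.43 ± 0.16), before S100a6 (-0.55) and Cib2 (-0.25). The median log2 fold change of the list was -0.10, -0.10 and -0.0060, beside -0.0059, -0.0049 and -0.0061 over all genes.

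Within clusters and among the added libraries no EF-hand gene was called either. In PEP1-like neurons, where 45 were tested, the lowest unadjusted p-values were those of Mcfd2 (0.95 ± 0.28 at 1 d, 0.72 ± 0.27 at 7 d) and Hpcal1 (-0.56 ± 0.21 at 3 d), with S100a10 (-0.48) and S100a5 (2.10) next at 1 d, Rcn3 (-1.44) and Cabp1 (0.97) at 3 d, and S100a1 (-0.70) and Rcn3 (-1.04) at 7 d. In large-fibre neurons, with 47 tested, they were S100a1 at 1 d (1.31 ± 0.37), Tesc, which encodes tescalcin, at 3 d (-0.82 ± 0.18) and S100a6 at 7 d (-0.89 ± 0.35). S100g (4.04) and Kcnip3 (-1.36) followed at 1 d, Kcnip3 (-2.29) and Necab3 (-0.48), a relative of the members, at 3 d, and S100a3 (-1.12) and Kcnip3 (-1.59) at 7 d. In the Sst-led cluster they were Kcnip1 (-2.27 ± 0.67), Nucb1 (-0.52) and S100a6 (-0.37) at 3 d and S100a13 (-0.92 ± 0.35), Kcnip1 (-1.71) and Gca (1.09) at 7 d. In PEP3-like neurons they were Rcn1 (-1.97 ± 0.80), S100a4 (0.84) and Hpcal4 (-1.85) at 1 d, S100a5 (1.34 ± 0.51), Cetn2 (0.28) and S100a4 (0.63) at 3 d, and Micu2 (0.38 ± 0.18), S100a13 (-0.48) and Letm1 (0.48) at 7 d. Among the added libraries they were Sri (-0.52 ± 0.19), Efhd2 (0.90 ± 0.34) and Calu (0.34 ± 0.15). All adjusted p-values in this paragraph, by edgeR's quasi-likelihood test, were above 0.05.

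Between the labelled and the added sham neurons 21 of 51 EF-hand genes were called (41.2%, beside 40.6% of all genes), 14 higher and 7 lower in the labelled set. Of 11 S100 genes 4 were higher, S100a4 (log2 fold change of 2.47 ± 0.26), S100a3 (2.44 ± 0.31), S100a11 (1.16 ± 0.27) and S100a10 (0.75 ± 0.13), and 0 lower. Of 15 neuronal sensors 5 were lower, the potassium channel partners Kcnip4 (-2.31 ± 0.41) and Kcnip1 (-0.77 ± 0.25), Cabp1 (-1.10), Ncald (-0.93) and the calcineurin subunit Ppp3r1 (-0.76), and 2 higher, Cib1 (1.34) and Cib2 (0.68). Rcn1 (1.87), Nucb2 (1.27), Sdf4 (0.45), Pef1 (0.69), Sri (0.51), Pdcd6 (0.45) and Micu2 (0.88) were also higher, while Calu (-0.69) and Micu3 (-0.53) were lower.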

How the data were processed

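Count tables of 24 libraries were used, with UMIs per gene and cell as deposited. According to the methods and the labels, the authors split reads by cell barcode, used STAR with Rnor_6.0 for alignment and featureCounts (Subread) for gene assignment, and collapsed reads with UMI-tools, with SAMtools. The deposited counts are whole numbers with no normalization, and genes are listed by symbol without positions. A count per gene with a shared UMI is 1 molecule, and the capture is from the 3′ end, so levels are not divided by gene length and are compared within a gene only. In 3 libraries 2 gene names or fewer could not be matched. Cells with values identical to another cell numbered 0, and replicate pairs had a chi-square of at least 10.72 for each degree of freedom, so none was taken for a copy. No doublet caller was run, since the neurons were picked by hand.

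Clusters were made with Seurat 5.3.0 (2000 variable genes without the 5 members, 40 principal components, a resolution of 0.5), for labelled and added cells apart. A name needed at least 3 listed markers at 1.5 times the other cells with a UMI in at least 25% of cells. Counts were summed per DRG sample, and per cluster in samples with at least 3 of its cells. Sums were tested with the quasi-likelihood test of edgeR 4.0.16 in R 4.3.3 (TMM, filterByExpr, all genes adjusted by Benjamini-Hochberg, called under 0.05). In the Sst-led cluster 1 d was left out, having 1 sample. Shares of cells were compared by exact two-sided permutation tests. Fold changes come from the fits, and CPM are of plain sums. In simulated data of all labelled neurons at 7 d, the edgeR fit recovered 80 of 100 genes changed 4-fold and 100 of 100 changed 16-fold. The changed genes were drawn at random from genes with enough counts, each at its own spread. Recovery of such changes in the members themselves was not tested.

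Alternatives tried were DESeq2 1.42.0, DESeq2 size factors in edgeR, leaving out each sample, dropping the low-count filter, cells thinned to 20000 UMIs, year or date of reverse transcription, merged or split DRG samples, at least 5 cells per sample, all 37 mitochondrial genes in the quality limit in place of 13, other resolutions, the members kept for clustering, and other limits for holding a gene (1 UMI, 50 CPM). The members, the lists and the tests were chosen with earlier results of these data known. Named genes are the 5 members, for each the 5 genes most like it among those with a UMI in at least 5% of cells, and of the EF-hand list those called or, where none was, the 3 with the lowest p. Hapln4, Etv1, Runx3, Ntrk2 and Ntng1, from the marker lists, were named after their values had been seen. Of the EF-hand list, 3 genes were not found under the names searched, and 5 more did not pass the filter over all labelled neurons. Single values of some list genes are not reported here. The study's own annotation of cells and the dye of each cell were not used here.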

Additional observations from a re-analysis of the deposited data

Results flagged for a closer look

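In 11 of 40 groups of 4 to 7 samples, the highest or lowest sample stood further from the rest than Dixon's 95% limit allows. That limit is for normally distributed values, while CPM here are skewed and shares of cells are bounded. The count therefore only picks out values and cannot show an excess over chance. CPM and shares of the same gene were counted as separate groups. Many of these values come from the same few libraries and are not independent.

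Sample 19-1 at 7 d had 344 CPM of Pvalb (the other 7 d samples 0.315 to 57.6 CPM), 43.7 CPM of Calb2 (others 0.318 to 11.5) and 100% of cells holding Pvalb (others 0 to 25.0%). The added library S4 had 459 CPM of Pvalb (other added libraries 0 to 148) and 137 CPM of Calb2 (others 8.26 to 57.0). Both libraries also had the highest Pvalb outside large-fibre cells of their set, at 69.9 and 212 CPM. Sample 19-2 at 7 d had 63.2 CPM of Necab2 (others 10.9 to 18.2) and 50.0% of cells holding it (others 11.5 to 16.7%). In this sample SST-like cells of the Sst-led cluster made up 16.7% of cells, the highest share at 7 d, where the lowest was 3.12%. By the labels, 83.3% of the cells of 19-1 and 16.7% of those of 19-2 were directly injured, against 50.0% in the other 7 d samples, and the part of this in their values was not tested.

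The added library S1 had 23.5 CPM of Calb1 (others 2.12 to 8.08) and 27.3% of cells holding it (others 8.42 to 12.8%). Its cLTMR-like cells made up 9.09% of cells, the highest share among the added 0 d libraries. The sham sample 18 had 9.27 CPM of Calb2 (other sham samples 0.4997 to 1.72), and its 11 cells of the Sst-led cluster were the most of any sham sample. In the added library S2, 93.5% of cells held Necab1, where the others had 97.7 to 100%.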

How the results depend on the processing

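No paired analysis was possible because the labels give no replicate numbers shared between the groups, so the date of reverse transcription served as a block. The labelled sham against added sham calls of Calb2 and Necab1 remained in every alternative run, and no member was called over all labelled neurons in any. The year and date fits rest on few sham samples (1 in the later year), and depth and the number of samples limit the calls. The causes of the changes below were not tested.

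Folds here are log2 against sham. With a term for the year of library making, the direction turned over all labelled neurons for Calb2 (-1.77), Pvalb (-0.64) and Necab2 (-0.58) at 3 d and Pvalb at 7 d (-0.017), for Pvalb in large-fibre cells at 3 d (-1.86) and 7 d (-1.56), for Calb2 in Sst-led cells at 7 d (0.30) and for Necab1 in PEP3-like cells at 3 d (-0.12). With the date as a block it turned for Calb2 (-8.80), Pvalb (-5.15), Necab1 (-0.19) and Necab2 (-0.52) at 3 d and Calb2 (-2.02), Pvalb (-2.15) and Necab2 (-0.32) at 7 d. No 3 d sample shared a date with a sham sample. Only 17-3 shared its date with any other sample, among them 19-1 and 19-2. The 3 d values of this fit are thus links through samples of other groups and no direct comparison with sham. Merging 17-1 with 17-2 and 19-1 with 19-2 turned Necab1 at 1 d (0.070). Calb2 in Sst-led cells at 7 d was 0.086 by DESeq2 and 0.0016 with its size factors, and Necab1 in PEP3-like cells at 3 d was -0.019 with those size factors and -0.0075 with at least 5 cells per sample. In PEP1-like cells 1 member, Calb1, was called without the low-count filter at 1, 3 and 7 d and by DESeq2 at 3 d, where edgeR with the filter called 0.

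Leaving out 1 sample at a time gave, over all labelled neurons, -0.40 to 0.27 for Necab1 at 1 d, -0.31 to 2.08 for Calb2 at 3 d, -0.12 to 0.83 for Necab2 at 3 d, -0.047 to 3.02 for Calb2 at 7 d, -1.03 to 2.84 for Pvalb at 7 d, -0.29 to 0.22 for Necab1 at 7 d and -0.40 to 0.92 for Necab2 at 7 d. In large-fibre cells it gave -0.011 to 0.67 for Calb1 at 1 d, -0.13 to 1.14 for Pvalb at 3 d and -2.20 to 0.70 for Pvalb at 7 d, in Sst-led cells -2.29 to 1.32 for Calb2 at 3 d, -0.72 to 1.99 for Calb2 at 7 d and -0.018 to 0.32 for Necab2 at 7 d and in PEP3-like cells -0.18 to 0.15 for Necab1 at 3 d. In PEP1-like cells Calb1 at 3 d ranged from 2.13 to 3.00, with 0 to 1 members called. Among the added libraries the ranges were -1.23 to 0.58 for Calb1, 3.59 to 9.83 for Pvalb and 0.87 to 1.69 for Necab2, with 0 to 2 members called, the highest without S7.

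Shares of cells are in percentage points against sham. Calb2 at 3 d was -1.19 at a limit of 50 CPM. With the limit set to each library, Pvalb was 1.29 at 1 d and -0.264 at 7 d, and Necab2 1.04 at 1 d. At 1 UMI Necab2 was 1.62 at 1 d, and thinned -0.802 at 3 d, all turned from the limit of 10 CPM. Leaving out 1 sample gave -0.898 to 6.29 for Calb1 at 3 d, -2.83 to 4.01 for Calb2 at 3 d, -1.85 to 4.41 for Calb2 at 7 d, -10.9 to 3.01 for Pvalb at 1 d, -7.35 to 20.2 for Pvalb at 7 d, -3.35 to 7.30 for Necab1 at 1 d, -6.29 to 2.39 for Necab2 at 1 d, -1.34 to 7.34 for Necab2 at 3 d and -1.66 to 9.38 for Necab2 at 7 d. Of labelled Calb1 cells, 19.9% held Calb2 at 1 UMI and 0% at 50 CPM, and 51.7%, 18.4% and 23.5% held Pvalb at 1 UMI, at 50 CPM and at the library limit. Of Calb2 cells, 67.5% held Necab2 at 1 UMI. Pvalb in its highest added cluster was 879 CPM at a resolution of 0.8, where the highest added level of Calb2 moved from SST-like cells (222 CPM) to proprioceptor-like cells (262 CPM).

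Counts of all genes called, where edgeR called 0 over all neurons and in large-fibre, Sst-led and PEP3-like cells, were 9, 1 and 0 by DESeq2 over all neurons at 1, 3 and 7 d, and 5, 3 and 6 in large-fibre, 58, 30 and 48 in PEP3-like and 183, 69 and 60 in PEP1-like cells without the low-count filter, with 16 and 21 in Sst-led cells at 3 and 7 d. Over all labelled neurons Calb2 did not pass the filter in thinned cells. No fit with at least 5 cells per sample could be had in Sst-led cells or, in large-fibre cells, at 1 d.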
